A study of Mus musculus with 6 samples.

Results

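The genes described here encode 9 enzymes that make or use alpha-ketoglutarate and 2-hydroxyglutarate, 9 of the 23412 genes in the normalized count table: D2hgdh, Idh1, Idh2, Idh3a, Idh3b, Idh3g, Ogdh, Got1 and Glud1. The set was chosen by 1 measured value, since D2hgdh mRNA was higher in HN than in R1 mouse embryonic stem cells (mESCs), and the other 8 were added for their place in the same chemistry. The difference in D2hgdh is therefore a description and was not read as a test. RNA-Seq was performed on 3 libraries of R1 and 3 libraries of HN undifferentiated mESCs, both of the 129Sv strain. R1 is the wild type parental line. HN is nullizygous for huntingtin (Htt-/-), through deletion of the promoter and first exon of both Htt alleles. Both lines were grown without feeder cells on gelatin, in serum medium with leukaemia inhibitory factor and inhibitors of kinase signalling. Each line was 1 established line, so the loss of Htt and any other difference between the lines cannot be told apart. The 3 libraries of a line came from separate batches of cells with their own collection dates, and libraries of the same replicate number were collected on the same date.

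Alpha-ketoglutarate sits where the citric acid cycle meets amino acid metabolism. Isocitrate dehydrogenases produce it from isocitrate, glutamate dehydrogenase and aminotransferases produce it from glutamate, and the ketoglutarate dehydrogenase complex oxidises it to succinyl-CoA. It is also the co-substrate of dioxygenases that remove methyl groups from histones and oxidise 5-methylcytosine in DNA, and in mESCs its level relative to succinate is known to bear on the pluripotent state. 2-hydroxyglutarate is a reduced form that can compete with ketoglutarate at these dioxygenases, and D-2-hydroxyglutarate dehydrogenase, the product of D2hgdh, oxidises the D form back to ketoglutarate.

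The promoters of D2hgdh, and of Idh3g, Glud1 and Idh2, whose differences between the lines passed the test once collection date was taken into account, are printed so that the start sites can be compared. Each runs from 250 bases before to 50 bases after the RefSeq start (GRCm38.p6), 5′ to 3′ on the strand of the gene, and capitals mark the letters of the motifs that were found. The windows are chr1:93824990-93825289 on the plus strand for D2hgdh, chrX:73786848-73787147 on the minus strand for Idh3g, chr14:34310477-34310776 on the plus strand for Glud1 and chr7:80115301-80115600 on the minus strand for Idh2.
D2hgdh: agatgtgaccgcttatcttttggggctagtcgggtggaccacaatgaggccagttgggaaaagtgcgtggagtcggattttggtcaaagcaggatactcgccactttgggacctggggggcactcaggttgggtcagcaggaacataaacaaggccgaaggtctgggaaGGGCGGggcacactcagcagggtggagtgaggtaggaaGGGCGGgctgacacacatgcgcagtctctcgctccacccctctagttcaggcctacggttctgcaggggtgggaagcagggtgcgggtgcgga
Idh3g: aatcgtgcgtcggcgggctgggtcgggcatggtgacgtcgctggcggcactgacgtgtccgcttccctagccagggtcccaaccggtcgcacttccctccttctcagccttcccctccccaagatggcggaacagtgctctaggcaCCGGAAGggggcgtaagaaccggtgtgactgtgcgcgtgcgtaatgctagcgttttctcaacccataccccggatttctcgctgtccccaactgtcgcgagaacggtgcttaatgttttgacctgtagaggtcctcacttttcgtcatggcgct
Glud1: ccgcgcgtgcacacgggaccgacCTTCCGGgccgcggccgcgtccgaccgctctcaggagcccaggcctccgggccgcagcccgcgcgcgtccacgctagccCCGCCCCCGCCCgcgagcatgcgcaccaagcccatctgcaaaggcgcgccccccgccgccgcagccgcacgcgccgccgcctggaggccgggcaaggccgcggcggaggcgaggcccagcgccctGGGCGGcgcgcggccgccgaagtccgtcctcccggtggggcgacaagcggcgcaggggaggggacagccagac
Idh2: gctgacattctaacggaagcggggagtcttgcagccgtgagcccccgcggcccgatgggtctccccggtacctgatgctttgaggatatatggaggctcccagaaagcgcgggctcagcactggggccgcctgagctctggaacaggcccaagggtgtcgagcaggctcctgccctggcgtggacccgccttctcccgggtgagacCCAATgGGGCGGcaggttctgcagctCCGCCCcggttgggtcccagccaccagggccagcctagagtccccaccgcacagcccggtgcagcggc

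Both strands were searched for 7 motifs: the CCAAT box (CCAAT), the GC box (GGGCGG), the E-box (CACGTG), the cAMP response element (TGACGTCA), the NRF1 motif, the ETS motif (CCGGAAG) and the TATA box (TATAAA). None of these letters overlapped in the printed windows. The D2hgdh window held 2 GC boxes, which began 81 and 43 bases before the RefSeq start. The GENCODE annotation used below places D2hgdh at 93824909 to 93852348, so this whole window, with both GC boxes, lies inside that gene body. The Idh3g window held an ETS motif that began 104 bases before the start. Glud1 had GC boxes beginning 148, 142 and 23 bases before the start and an ETS motif 227 bases before it, and Idh2 had a CCAAT box 44 bases before the start with GC boxes at 38 and 18 bases. GC content was 59.7% for D2hgdh, 60.3% for Idh3g, 68.3% for Idh2 and 81% for Glud1, against a median of 52.7% over 32851 promoter windows. The number of CpG dinucleotides was 13 for D2hgdh, 27 for Idh3g, 20 for Idh2 and 51 for Glud1, against a median of 7. A window was given for 8 of the 9 genes, without Idh3a, with 6 windows for Ogdh, 2 for Idh1 and 1 for each other gene. A gene was counted where any of its windows held the motif, and the same was done for all 27025 genes with a window, so a gene with many windows had more chances. GC boxes were found for 5 of the 8 (D2hgdh, Glud1, Idh1, Idh2 and Ogdh), against 38.2% of all genes and 35.7% of single windows. The ETS motif was found for 3 (Glud1, Idh3b and Idh3g), against 9.93% of genes and 8.86% of windows, and the CCAAT box for 5 (Got1, Idh1, Idh2, Idh3b and Ogdh), against 41.1% and 37.4%. The E-box (8.09% of genes, 7.15% of windows) and the cAMP response element (2.03% and 1.79%) were found for 1 of the 8, Ogdh, the gene with the most windows. The TATA box (15.7% and 13.6%) and the NRF1 motif (1.07% and 0.971%) were found for none. The printed windows thus had no motif in common, and a match is only a match of letters.

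Each library held between 1640391 and 3866717 reads recovered from the normalized counts, and reads have no molecular identifiers, so a low count carries at least its counting error. Htt itself was 230, 257 and 199 normalized counts in R1 and 18.3, 58.1 and 54.2 in HN. The libraries of replicate 3 stood apart in both lines, with reads in 20675 (R1) and 20542 (HN) genes, against 18133 to 19083 in the other 4. The embryonic stem cell label was checked with 8 markers (Pou5f1, Nanog, Sox2, Zfp42, Esrrb, Klf4, Tfcp2l1 and Dppa5a). Their summed normalized count ran from 12428 to 17213 in R1 and from 14502 to 19869 in HN. None of the 8 passed the test without the date block, and with it 5 were higher (Nanog, Esrrb, Klf4, Tfcp2l1 and Dppa5a) and Zfp42 was lower in HN. Markers of other cell types were low but none of the 23 was at 0 in every library. Their sums in R1 and HN were 38.5 to 106 and 12.8 to 69.3 for fibroblasts, 36.2 to 159 and 38.3 to 142 for primitive endoderm, 48.1 to 173 and 144 to 175 for neural cells, and 79.8 to 162 and 136 to 248 for mesoderm. With the date block, 4 of the 19 tested markers of other cell types differed, with Olig2, T and Eomes higher and Thy1 lower in HN. Their part in the results below was not tested. In bulk RNA, a change in the number of cells of a type and a change in RNA per cell cannot be told apart.

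D2hgdh (chromosome 1, 93824909 to 93852348, plus strand, GRCm38) was the least abundant of the 9 mRNAs in both lines. In the R1 libraries it reached 9.58, 7.40 and 12.1 normalized counts, given here and below in the order of replicates 1, 2 and 3, against 30.4, 38.3 and 44.4 in the HN libraries. All 3 HN libraries were above all 3 R1 libraries. The means were 9.70 ± 2.37 in R1 and 37.7 ± 7.01 in HN (SD, n = 3), a 3.89-fold ratio. On the log2 scale with 1 added to each value, which understates the change of a low gene, the difference was 1.86 with a standard error of 0.37. The same-date differences were 1.57, 2.23 and 1.79 on that scale. These values rest on few reads, 9, 10 and 9 in R1 and 25, 54 and 41 in HN. Since the gene was selected for this difference, these values are a description. D2hgdh is left out of the counts of enzymes that passed given below, except for the counts over all 9 in the last section.

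**Figure D1:**
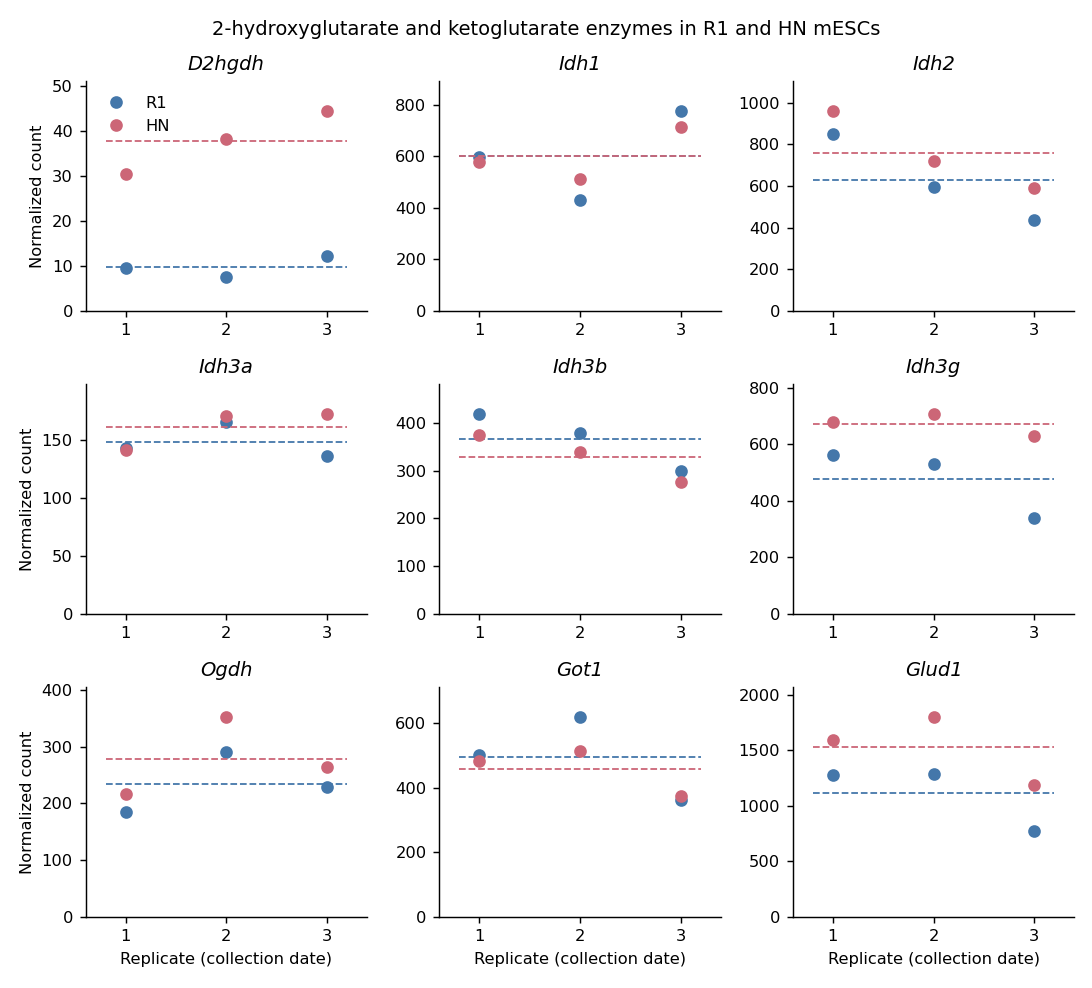
Normalized counts (y axes, each from 0) of the 9 genes in R1 (blue) and HN (red) mESCs by replicate number, which marks the collection date (x axes). Each point is 1 library and each dashed line is the mean of 3 libraries. For D2hgdh and Idh3g the lines do not overlap, and for Idh2, Ogdh and Glud1 the HN point is above the R1 point at each date although the ranges overlap.

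Part of the D2hgdh transcript cannot be assigned to this gene alone. Of the 4458 distinct stretches of 50 bases in its annotated transcripts, 793 (17.8%) also occurred in Gm18666 or Gm7889, unprocessed pseudogenes annotated downstream on the same strand of chromosome 1 (93906244 to 93916768 and 93975353 to 93985816). Reads from these stretches could be discarded or split, depending on how multiply aligned reads were treated, and the pseudogenes were not analysed here. The level and fold of D2hgdh are therefore uncertain to that extent. For Glud1, 273 of 4207 stretches (6.49%) were shared with Glud-ps and Gm43444, and for the other 7 genes no stretch was shared with another annotated gene. Idh3b overlapped its antisense neighbour Nop56 by 5 bases of exon, and whether reads were counted by strand is not given in the sources used here.

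The genes beside D2hgdh did not pass the test. Within 500000 bases of it, 14 genes were in the table and 11 passed the minimum mean of 5 normalized counts, all of them upstream. None of the 11 passed at an adjusted p of 0.05 by limma, with or without the date block, and 0 had an unadjusted p under 0.05 without it. edgeR and DESeq2 also called 0. The median log2 difference of the 11 was -0.05, with 4 positive and 7 negative values, from -0.54 for Bok, a Bcl2 family member, to 0.47 for Ano7, a transmembrane protein of the anoctamin family. The value of Ano7 rests on 15 reads in R1 and 14 in HN. Its mean was lower in HN (5.03 against 6.13), and its log2 difference was -0.24 by edgeR and -0.29 by DESeq2, both without the block. Ing5, a subunit of histone acetyltransferase complexes that ends 2807 bases before D2hgdh begins, had means of 281 in R1 and 289 in HN and a log2 difference of 0.06. The next genes upstream, Dtymk, the thymidylate kinase, and Atg4b, an autophagy protease, had log2 differences of -0.24 and -0.02. With both libraries of replicate 3 left out and the date block, 1 of the 11 passed, Bok, at -0.76 (limma, adjusted p = 0.0402), opposite in direction to D2hgdh.

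**Figure D2:**
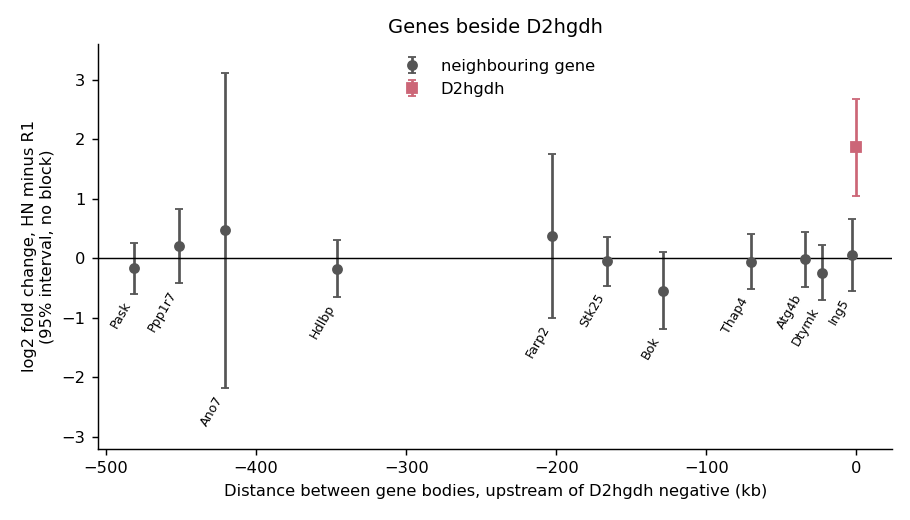
Log2 difference between HN and R1 (y axis) of the 11 tested genes within 500 kb of D2hgdh against their distance from it (x axis, kb, negative upstream), by limma without the date block. Points are differences of the means of 3 libraries a line and bars are 95% intervals. The intervals of all 11 neighbours include 0, and D2hgdh (red square), the gene chosen for its difference, stands at 1.86.

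Idh1 encodes the cytosolic and Idh2 the mitochondrial NADP-dependent isocitrate dehydrogenase. Idh1 (chromosome 1, 65158616 to 65186500, minus strand) had normalized counts of 596, 430 and 776 in R1 and 577, 511 and 715 in HN. The lines overlapped, with the highest value at replicate 3 and the lowest at replicate 2 in both. The means were 601 ± 173 and 601 ± 104, and the log2 difference was 0.03 (95% interval -0.49 to 0.54, limma adjusted p = 1). With collection date as a block the interval narrowed to -0.17 to 0.23. Idh2 (chromosome 7, 80094846 to 80115392, minus strand) had 853, 593 and 435 in R1 and 961, 721 and 589 in HN. Its lines overlapped too, but HN was above R1 at each date, by 0.17, 0.28 and 0.44 on the log2 scale. The means were 627 ± 211 and 757 ± 189, and the log2 difference of 0.30 did not pass without the block (95% interval -0.28 to 0.87, limma adjusted p = 1). With the date block Idh2 rose in HN (95% interval 0.10 to 0.49, limma adjusted p = 0.0411). This call was lost with DESeq2 and the block (adjusted p = 0.14), and with both libraries of replicate 3 left out and the block (log2 difference 0.23, limma adjusted p = 0.13). The log2 difference of Idh2 was 0.06 without R1 replicate 3, 0.11 without HN replicate 1, 0.46 without HN replicate 3 and 0.54 without R1 replicate 1. The ratio of Idh1 to Idh2 per length was 0.998 ± 0.578 in R1 and 0.785 ± 0.306 in HN (exact permutation test, two-sided p = 0.6, where 0.1 is the smallest p that 3 against 3 libraries allow).

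Idh3a, Idh3b and Idh3g encode the subunits of the NAD-dependent isocitrate dehydrogenase of the citric acid cycle, with the catalytic site on the alpha subunit and the beta and gamma subunits needed for activity and allosteric control. Idh3g (chromosome X, 73778963 to 73786897, minus strand) had normalized counts of 562, 529 and 340 in R1 and 678, 707 and 630 in HN. Every HN library was above every R1 library, and R1 replicate 3 was the lowest. The means were 477 ± 120 and 672 ± 38.5, a ratio of 1.41. The log2 difference of 0.53 (SE 0.22) did not pass without the block (limma adjusted p = 0.755) and rose in HN with it (SE 0.11, 95% interval 0.31 to 0.74, adjusted p = 7.49e-04). Its same-date differences were 0.27, 0.42 and 0.89. Without R1 replicate 3 the log2 difference was 0.30, and with both libraries of replicate 3 left out it was 0.34 and passed with the block (adjusted p = 0.0135).

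Neither of the other subunits passed the test. Idh3b (chromosome 2, 130279309 to 130284547, minus strand) had normalized counts of 418, 379 and 299 in R1 and 375, 338 and 275 in HN. The lines overlapped, and HN was below R1 at each date, by log2 differences of -0.16, -0.17 and -0.12. Its log2 difference of -0.15 did not pass without the block (95% interval -0.60 to 0.30, limma adjusted p = 1) or with it (-0.36 to 0.06, adjusted p = 0.454). Idh3a (chromosome 9, 54586334 to 54604661, plus strand) had 143, 166 and 136 in R1 and 141, 171 and 172 in HN. The lines overlapped, with nearly equal values at the first and second dates. The log2 difference of Idh3a was 0.12 (95% interval -0.32 to 0.56, adjusted p = 1 without the block and 0.667 with it).

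The share of each subunit in the summed Idh3 mRNA was computed from recovered reads per kilobase of exon. Idh3g made up 58.1%, 57.7% and 52.4% of it in R1 and 64.6%, 66.4% and 67.1% in HN. The lines did not overlap, and the share was higher in HN at each date, by 6.58, 8.69 and 14.7 percentage points. The mean share was 56.0 ± 3.17% in R1 and 66.0 ± 1.28% in HN (exact permutation test, two-sided p = 0.1, the smallest possible, and 0.15 after Benjamini-Hochberg adjustment over the 3 shares). Idh3b made up 34.4 ± 1.89% in R1 and 25.5 ± 2.57% in HN, again without overlap and with HN the lower (exact p = 0.1, adjusted 0.15). The share of Idh3a was 9.55 ± 1.67% and 8.49 ± 1.30% (exact p = 0.5, adjusted 0.5). The ratio of Idh3g to Idh3b per length was 1.64 ± 0.174 in R1 and 2.61 ± 0.307 in HN, and the summed level was 125 ± 15.3 and 148 ± 4.88 RPKM (recovered reads per kilobase of exon, scaled to the library total) (exact p = 0.1 for both). These shares sum to 100% and are not independent of each other, and this design cannot reach p = 0.05 by permutation. The level of a share also depends on the length used. With the longest transcript as length, a setting chosen after seeing the data, Idh3g took 51.0%, 50.5% and 45.1% in R1. In HN it then took 57.8%, 59.5% and 60.1%.

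**Figure D3:**
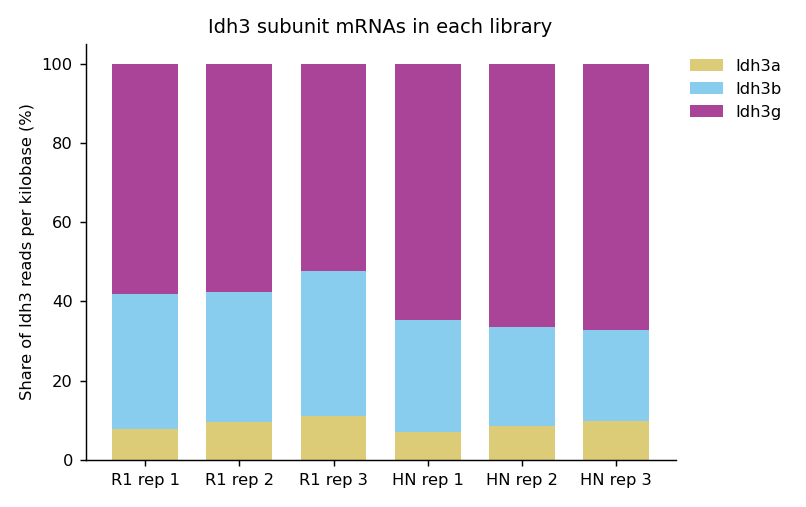
Share of Idh3a, Idh3b and Idh3g (stacked bars, %, y axis) in the summed Idh3 reads per kilobase of exon, for each library (x axis). Idh3g takes 52.4% to 58.1% in the 3 R1 libraries and 64.6% to 67.1% in the 3 HN libraries.

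Ogdh encodes the ketoglutarate-oxidising subunit of the ketoglutarate dehydrogenase complex. Ogdh (chromosome 11, 6291633 to 6356642, plus strand) had normalized counts of 184, 290 and 229 in R1 and 217, 352 and 264 in HN. The lines overlapped and shared the order of dates, with the highest value at replicate 2, and HN was above R1 in every pair. The log2 difference was 0.24 (95% interval -0.28 to 0.76, limma adjusted p = 1), and it did not pass with the date block (0.01 to 0.47, adjusted p = 0.204). Got1 encodes the cytosolic aspartate aminotransferase of the malate-aspartate shuttle. Got1 (chromosome 19, 43499752 to 43524605, minus strand) had 501, 618 and 361 in R1 and 483, 514 and 374 in HN. Its lines overlapped and the direction changed from date to date. The log2 difference was -0.09 (95% interval -0.59 to 0.41, limma adjusted p = 1, and 0.679 with the block).

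Glud1, the mitochondrial glutamate dehydrogenase, had the highest mean normalized count of the 9 mRNAs in both lines. In R1 replicate 3 Idh1 was slightly above it (776 against 774). Glud1 (chromosome 14, 34310727 to 34345265, plus strand) had normalized counts of 1275, 1283 and 774 in R1 and 1589, 1798 and 1190 in HN. The ranges overlapped through HN replicate 3, and HN was above R1 at each date, by 0.32, 0.49 and 0.62 on the log2 scale. The means were 1111 ± 292 and 1526 ± 309, a ratio of 1.37. The log2 difference of 0.47 (SE 0.24) did not pass without the block (limma adjusted p = 0.952) and rose in HN with it (SE 0.09, 95% interval 0.29 to 0.66, adjusted p = 3.34e-04). Without R1 replicate 3 it was 0.23, and with both libraries of replicate 3 left out it was 0.40 and passed with the block (adjusted p = 1.44e-04). Other genes of its chromosome were shifted in the same direction. The 458 other tested genes of chromosome 14 had a median log2 difference of 0.25, and 78.4% of them were above 0, against 6922 of all 14276 tested genes. Glud1 was above 76.0% of those genes. The part of the chromosome in the Glud1 result was not tested. For the other chromosomes that carry these genes the median lay between -0.06 (chromosome 1) and 0.08 (chromosome X, 417 other genes, of which 87.3% were below Idh3g).

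**Figure D4:**
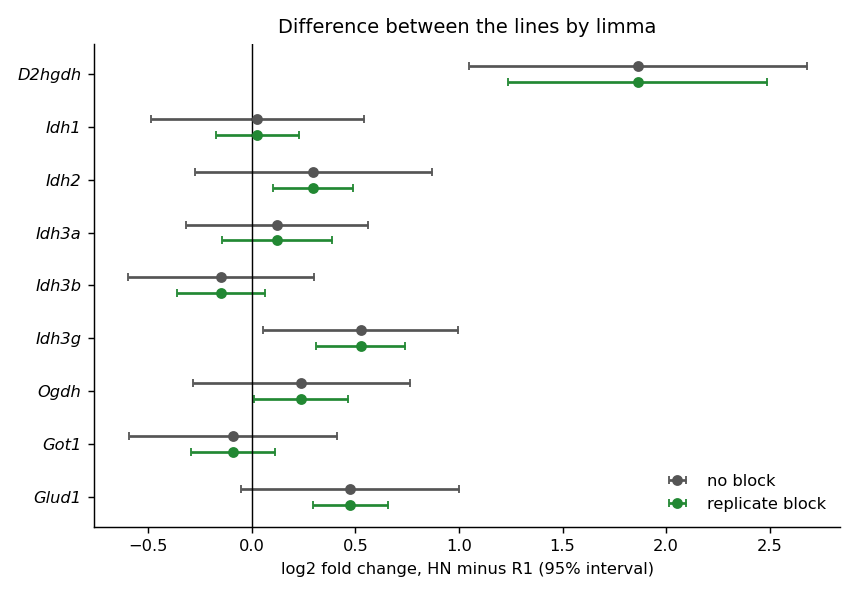
Log2 difference between HN and R1 (x axis) of the 9 genes (y axis) by limma without (grey) and with (green) collection date as a block. Points are differences of the means of 3 libraries a line and bars are 95% intervals. With the block the bars of Idh2, Idh3g and Glud1 lie above 0 and so does the unadjusted bar of Ogdh, whose adjusted p of 0.204 did not pass, while D2hgdh was chosen for its difference.

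The counts that follow are over the 8 enzymes other than D2hgdh. Without the date block, 0 of the 8 passed at an adjusted p of 0.05 by limma, against 0.245% of the 14276 genes tested. An unadjusted p under 0.05 was reached by 1 of the 8, Idh3g, against 5.91% of all tested genes. edgeR passed 0, and DESeq2 passed 0, against 1.02% of all genes with an adjusted p. With the block, 3 of the 8 passed (Idh2, Idh3g and Glud1), all higher in HN, against 9.48% of all tested genes in either direction and 5.46% higher. edgeR with the block also passed 3 of the 8 (11.2% of all tested genes), and DESeq2 with the block passed 2 (5.35% of all genes with an adjusted p). With both libraries of replicate 3 left out and the block, limma passed 2 of the 8, Idh3g and Glud1, both higher in HN (11.8% of all tested genes in either direction, 5.86% higher). That fit leaves few libraries to estimate the variance of each gene. It passed a larger share of genes than the full blocked fit (9.48%), so it was not a stricter test. None of the 8 differed by more than 0.53 on the log2 scale, so 0 passed with an added threshold of 1 on the log2 difference (1.95% of all tested genes with the block). The median log2 difference of the 8 was 0.18, against -0.01 over all tested genes. The ranges of the lines did not overlap for 1 of the 8, Idh3g, against 10.8% of tested genes in either direction and 5.23% higher. HN was higher at every date for 4 of the 8 (Idh2, Idh3g, Ogdh and Glud1), against 20.3% of tested genes, and lower at every date for Idh3b alone, against 21.1%. The log2 range over the 3 date means exceeded the difference between the lines for 7 of the 8, all but Idh3g, against 85.0% of all tested genes. Idh2 ranged by 0.84 (highest at replicate 1), Ogdh by 0.68 (highest at replicate 2) and Idh1 by 0.67 (highest at replicate 3). The dates fell in the same order in both lines for 6 of the 8 (Idh1, Idh2, Idh3b, Ogdh, Got1 and Glud1), against 42.3% of all tested genes.

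Per length, D2hgdh was far below the other enzymes. In R1, levels in RPKM were 105 ± 18.9 for Glud1, 96.5 ± 27.3 for Idh2, 89.4 ± 34.7 for Idh1, 77.4 ± 13.5 for Got1, 70.3 ± 12.2 for Idh3g, 42.8 ± 4.03 for Idh3b, 17.3 ± 3.72 for Ogdh, 11.8 ± 0.757 for Idh3a and 0.932 ± 0.322 for D2hgdh (SD, n = 3). Neighbours in this order overlapped among the first 5, and the last 4 did not overlap with their neighbours. In HN the order was Glud1 at 142 ± 19.0, Idh2 at 115 ± 27.6, Idh3g at 98.0 ± 2.17, Idh1 at 86.4 ± 21.5, Got1 at 70.5 ± 6.95, Idh3b at 37.8 ± 4.82, Ogdh at 19.9 ± 3.97, Idh3a at 12.6 ± 1.73 and D2hgdh at 3.49 ± 0.825. Again neighbours overlapped only among the first 5, and Idh3g stood above Idh1, whose range it overlapped, and above Got1, whose range it did not. Among all tested genes, the mean normalized count of D2hgdh over the 6 libraries lay above 31.0% of genes, while the other members of the set lay above 72.7% (Idh3a) to 98.4% (Glud1).

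The other genes of the pathway were taken from lists by function, 90 of which were tested. By limma without the date block 1 of the 90 passed, the histone demethylase Kdm6a (0.245% of all tested genes passed), and with the block 17 passed, 10 higher and 7 lower in HN. With the block 9.48% of all tested genes passed, 5.46% higher, and the percentages of each list below are to be read beside these. Of 7 other genes in the 2-hydroxyglutarate list, 1 was higher and 2 were lower with the block (42.9%, median log2 difference -0.07). Adhfe1, a transhydrogenase that produces D-2-hydroxyglutarate, differed by -0.07 on the log2 scale (adjusted p = 0.944 with the block). Phgdh, the first enzyme of serine synthesis, which can also reduce ketoglutarate, had 398, 320 and 356 in R1 and 213, 250 and 250 in HN. All HN libraries were below all R1 libraries, and Phgdh fell by the blocked test (log2 difference -0.59, limma adjusted p = 5.59e-04, and 0.517 without the block). The lactate dehydrogenase subunits moved in opposite directions, with Ldha higher by 0.58 (adjusted p = 1.05e-04 with the block and 0.796 without) and Ldhb different by -0.74 (7.05e-04 and 1). By DESeq2 with the block Ldhb passed (adjusted p = 0.0178) and Ldha did not (adjusted p = 0.0968).

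None of 6 other components and relatives of the ketoglutarate dehydrogenase complex passed by limma with or without the block, by edgeR or by DESeq2, and 0 had an unadjusted p under 0.05 without the block. Their log2 differences ran from -0.23 (Dld, the shared dihydrolipoamide dehydrogenase) to 0.14 (Ogdhl, a relative of Ogdh), and Dlst, the succinyltransferase core, was at -0.04. Of 11 other citric acid cycle enzymes, 1 was higher and 1 lower with the block (18.2%, median -0.15). Cs, citrate synthase, rose by 0.40 on the log2 scale (limma adjusted p = 0.00308 with the block and 0.915 without) and Suclg2, the GTP-forming succinyl-CoA ligase subunit, had a difference of -0.77 (1.54e-04 and 0.433). Of 15 glutamate and aminotransferase enzymes 13 were tested, and 0 were higher and 2 lower with the block (15.4%, median -0.18). Psat1, the phosphoserine aminotransferase that releases ketoglutarate from glutamate, had 894, 775 and 855 in R1 and 546, 505 and 761 in HN. Its lines did not overlap, and its log2 difference was -0.50 (limma adjusted p = 8.27e-04 with the block and 0.752 without). Abat, the GABA transaminase, had a difference of -1.73 (0.00276 and 0.424) on 64 reads in R1 and 18 in HN. DESeq2 gave Abat no adjusted p. Got2, the mitochondrial partner of Got1, differed by -0.10 and did not pass (adjusted p = 0.667 with the block).

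Of 10 carriers of glutamate, ketoglutarate and citrate 8 were tested, and 1 passed with the block (12.5%, median 0.15). This was Slc1a5, a glutamine transporter of the plasma membrane, with 258, 238 and 112 normalized counts in R1 and 412, 360 and 273 in HN. The lines did not overlap, and the log2 difference was 0.85 (limma adjusted p = 6.95e-06 with the block and 0.62 without). Of 50 ketoglutarate-dependent dioxygenases 45 were tested, and with the block 7 were higher and 2 lower (20.0%, median 0.16). Kdm6a, an X-linked H3K27 demethylase, had 213, 320 and 209 in R1 and 9.73, 10.6 and 0 in HN, and fell with and without the block (log2 difference -5.60, limma adjusted p = 0.00739 without it). Egln3, a prolyl hydroxylase that acts on hypoxia-inducible factor, differed by -1.05 (adjusted p = 8.05e-04 with the block and 0.752 without). Higher with the block were Kdm2b, an H3K36 demethylase, by 0.84, Alkbh6 by 0.65, Tet2, a 5-methylcytosine oxidase, by 0.62, Kdm3b, an H3K9 demethylase, by 0.41, and 3 others by less. None of these 7 passed without it. By DESeq2 with the block Kdm2b and Tet2 passed, and Alkbh6 and Kdm3b did not (adjusted p = 0.0991 and 0.0626). Tet1, another 5-methylcytosine oxidase of mESCs, had 1428 ± 614 normalized counts in R1 and 1374 ± 443 in HN and did not pass (limma adjusted p = 1 without the block).

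**Figure D5:**
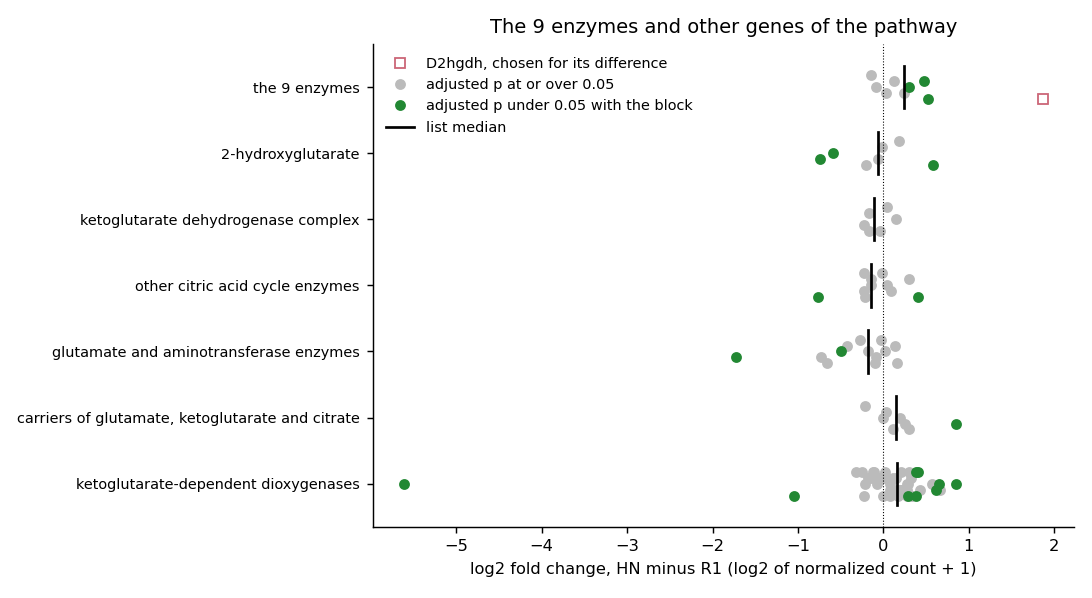
Log2 difference between HN and R1 (x axis) of each tested gene in the 9 enzymes and in 6 lists of other genes of the pathway (rows). Each point is 1 gene, green where the adjusted p was under 0.05 by limma with the date block, and the black line is the median of the list. The open red square is D2hgdh, chosen for its difference. The list medians lie between -0.18 and 0.24, and Kdm6a is the point at -5.60. The highest median, 0.24, is that of the 9 enzymes with D2hgdh included, and it is 0.18 without D2hgdh.

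Across the 6 libraries the genes whose log2 values were most like those of D2hgdh were 9530068E07Rik (Pearson r = 0.996), Atf7ip2 (0.990), Tgds (0.987), Zscan12 (0.982) and Sdc2 (0.977). All 5 were low in the R1 and high in the HN libraries. Since D2hgdh was chosen for that pattern, these correlations largely restate it. The same holds for the calls of these 5 genes given next, which are descriptions and were not read as tests. By limma Sdc2 passed without the block (adjusted p = 0.0278), 9530068E07Rik, Atf7ip2 and Tgds passed with it alone (0.0228, 0.00195 and 4.31e-05, against 0.731, 0.497 and 0.107 without it), and Zscan12 passed with neither. Tgds, a sugar nucleotide dehydratase, had normalized counts of 12.8, 13.3 and 20.2 in R1 and 38.9, 53.9 and 53.1 in HN. Among the other 8 enzymes the correlation with D2hgdh ran from -0.53 (Idh3b) to 0.61 (Idh3g). Between the 8, Idh1 and Got1 were opposite across libraries (r = -0.98), with replicate 3 the highest for Idh1 and the lowest for Got1 in both lines. These are descriptions over 6 points that share line, date and depth.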

How the data were processed

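RNA-Seq libraries were prepared from total RNA and sequenced as paired ends. The authors demultiplexed with bcl2fastq, aligned with STAR to mouse mm10 (GRCm38), removed duplicates with Picard, counted exonic reads per gene with HTSeq and normalized with DESeq2, so the deposited signal of a gene is its read count divided by the size factor of its library. Versions, annotation and strand setting are not given in the sources used here. Dividing by the smallest nonzero value of the library turned 100% of values into whole numbers (within 0.01), which were taken as the reads. Genes with a mean of at least 5 (14276) were tested with limma 3.58.1 (trend) in R 4.3.3 on log2(value + 1), and p-values were adjusted by Benjamini-Hochberg over all tested genes. "Passed" means an adjusted p under 0.05. Replicate numbers mark a shared collection date in the labels. Deviations from the line means correlated at 0.25, 0.69 and 0.77 between libraries of the same date, in the order of replicates. Correlations between dates were not computed, and replicate 2 was the deepest in both lines, so date and depth cannot be told apart. The libraries were paired by these labels, and the fit with date as a block is given where it changes a call. edgeR 4.0.16 and DESeq2 1.42.0 were run on the recovered reads. Positions and merged exon lengths came from GENCODE M21 on GRCm38, matched by symbol for 21712 genes, and promoters from RefSeq GRCm38.p6. Riox1, Riox2 and Kdm7a were matched under older symbols, and Tmlhe was not analysed here. The 9 genes and all lists were chosen with earlier results of these data known. All 9 are described. Of each list, at most 6 genes that passed with or without the block are named, chosen by the size of their log2 difference, along with genes given for their role. Tet1 was named after its values were seen. The values of 1 listed gene are not reported here. Scripts were tested on simulated data that held no date effect, and only for the fits without the block, so the blocked fits were not tested in this way.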

Additional observations from a re-analysis of the deposited data

How the results depend on the processing

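Of the 9 enzymes, with D2hgdh, chosen for its difference, among them, those passing numbered 0 by limma without the block, 4 with the replicate block, 4 with edgeR and the block, 1 with DESeq2, 2 with DESeq2 and the block, 3 with replicate 3 of both lines left out and the block, and 0 to 1 when each library was left out (1, D2hgdh, without R1 replicate 3). DESeq2 with the block gave D2hgdh no adjusted p (log2 difference 1.98), so it could not be counted among those 2. D2hgdh was among those passing in each of the other counts above 0, and the counts without it are given above. Those beyond 1 on the log2 scale numbered 1 with limma and the block, with edgeR and the block, with DESeq2 and with replicate 3 left out and the block, and 0 to 1 on leaving out libraries. Each time the 1 was D2hgdh, so these counts restate its selection. Of all tested genes, 17 were higher and 18 lower without the block. The replicate block gave 780 and 574, edgeR with it 920 and 685, DESeq2 68 and 44, DESeq2 with the block 334 and 178, and replicate 3 left out with the block 836 and 847. Without a filter or without the variance trend 0 were higher and 0 lower, and the higher count was 30 with median centring and 27 with quantile normalization. Leaving out 1 library gave 3 to 30 higher and 4 to 26 lower, with 3 and 10 without HN replicate 1 and 4 and 4 without R1 replicate 1. Pathway genes passing numbered 1 without the block, 17 with the replicate block, 20 with edgeR and the block, 11 with DESeq2 and the block, 20 with replicate 3 left out and the block, 0 with a pseudocount of 0.1, without a filter or without the trend, and 0 to 1 on leaving out libraries (0 without R1 replicate 1). Neighbours of D2hgdh passing were 0, and 1 with replicate 3 left out and the block. The causes were not tested. Idh1 turned negative with DESeq2 (-0.0064), without R1 replicate 2 (-0.19) and without HN replicate 3 (-0.10), and Got1 turned positive without R1 replicate 2 (0.089) and without HN replicate 3 (0.047), with ranges over left-out libraries of -0.19 to 0.23 and -0.30 to 0.089. The other 7 enzymes kept their direction in every alternative in which they were tested: D2hgdh 1.27 to 2.02, Idh3g 0.30 to 0.66, Glud1 0.23 to 0.64 and Idh2 0.06 to 0.54. D2hgdh, chosen for its direction, was not tested where the minimum mean was raised to 50. The difference in Idh3g share was 8.17 to 11.0 points on leaving out libraries, 7.63 without replicate 3 of both lines and 10.3 with the longest transcript as length, a setting chosen after seeing the data. Among the 9 enzymes, the genes near D2hgdh and the 5 genes most like it, the block changed no other call than those given. Depth limits D2hgdh most, at 9 to 54 reads a library.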
